A study of Mus musculus with 6 samples.

Results

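The genes described here are 40 genes of oxygen sensing, glycolysis and lactate supply, out of 29275 genes measured by RNA sequencing in cultured primary mouse Sertoli cells. They were chosen by name, each through the Ensembl identifier that carries its symbol, and every one of the 40 symbols was found. Aldoa was the one symbol with a second identifier (ENSMUSG00000114515, listed at 0.0668 to 2.13 FPKM), so 41 rows carried a member's symbol, and the row of the aldolase gene itself (ENSMUSG00000030695) was used. FPKM, fragments scaled by gene length and by sequencing depth, is the deposited unit, and because it is scaled by length, levels of different genes can be set side by side.

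The 6 libraries were 3 numbered biological replicates labelled Arhgef15 cKO, a conditional deletion of the guanine nucleotide exchange factor gene Arhgef15, and 3 wild-type (WT) replicates. The labels give neither the Cre driver, the deleted exons, the age and strain of the mice nor whether animals were pooled. All cells were grown in DMEM/F12 with 10% serum and 0.25 ug/ml EGF at 34 degrees C and 5% CO2. The labels call the WT cells untreated. Nothing says that the cultures came from separate animals, and p-values then measure only how these libraries differ, which may be technical.

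Sertoli cells take up glucose, run it through glycolysis and export much of the product as lactate, which spermatocytes and spermatids use as fuel. Glycolytic genes are also targets of the hypoxia-inducible factors (HIF), transcription factors whose alpha subunit is hydroxylated by oxygen-dependent prolyl hydroxylases (the Egln genes) and then degraded through the VHL ubiquitin ligase. When oxygen falls the subunit is stabilised, and genes of glucose uptake, glycolysis, mitophagy and the prolyl hydroxylases themselves are induced. HIF1A activity is set largely on the protein, which RNA does not report.

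The targeted gene does not check the labels here. Arhgef15 was at 0.501, 0.322 and 0.338 FPKM in cKO replicates 1, 2 and 3 and at 0.123, 0.0237 and 0.349 FPKM in WT replicates 1, 2 and 3 (log2 difference 0.26, SE 0.13, limma adjusted p = 0.903 over all 29275 genes, exact permutation p = 0.3), so the cKO-labelled libraries did not have less of it. Depth, read from the step between neighbouring values, was 16970000 to 20060000 fragments per library. WT replicate 3 stood apart from the other WT libraries, with a Pearson correlation across genes of 0.86 and 0.898 with WT replicates 1 and 2 and of 0.947, 0.929 and 0.921 with cKO replicates 1, 2 and 3. Sertoli markers summed to 481.9 to 724.8 FPKM in cKO libraries and 160.6 to 637.6 FPKM in WT libraries, over 10 genes, none at 0 in every library. Among them Fshr, the receptor for follicle-stimulating hormone, was listed at 0 in WT replicates 1 and 2 and was under 2 FPKM elsewhere. Macrophage and leukocyte markers, also 10 genes, summed to 145.5 to 257.1 FPKM in cKO libraries and 211.4 to 1075 FPKM in WT libraries, with Ptprc under 1 FPKM throughout. In both lists WT replicate 3 lay with the cKO libraries.

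No member differed between the genotypes beyond the test. All 40 passed the filter of at least 1 FPKM in at least 3 libraries, and 0 of 40 passed an adjusted p of 0.05 (limma on log2(FPKM + 1), Benjamini-Hochberg over 12284 genes), where 0.0163% of all tested genes did. At an unadjusted p under 0.05 there were 2 members, the hexokinase gene Hk2 and the stress-response gene Ddit4, which is 5% of the members against 6.81% of all tested genes. Both had the higher mean in cKO libraries, and 3.87% of all tested genes had such a p with the higher mean there. The log2 difference was above 0 for 26 of 40 members, 65%, against 59.8% of all tested genes, and its median was 0.16 over the members and 0.08 over all tested genes. In none of the 40 did all cKO values lie above, or all lie below, the WT values, while 11.3% of all tested genes had groups that did not overlap, 6.28% with cKO above and 5.01% with cKO below. A p that misses the threshold does not show that the genotypes were alike: the 95% intervals of Hk2 and Ddit4 reached 2.26 and 2.56 on the log2(FPKM + 1) scale.

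**Figure D1:**
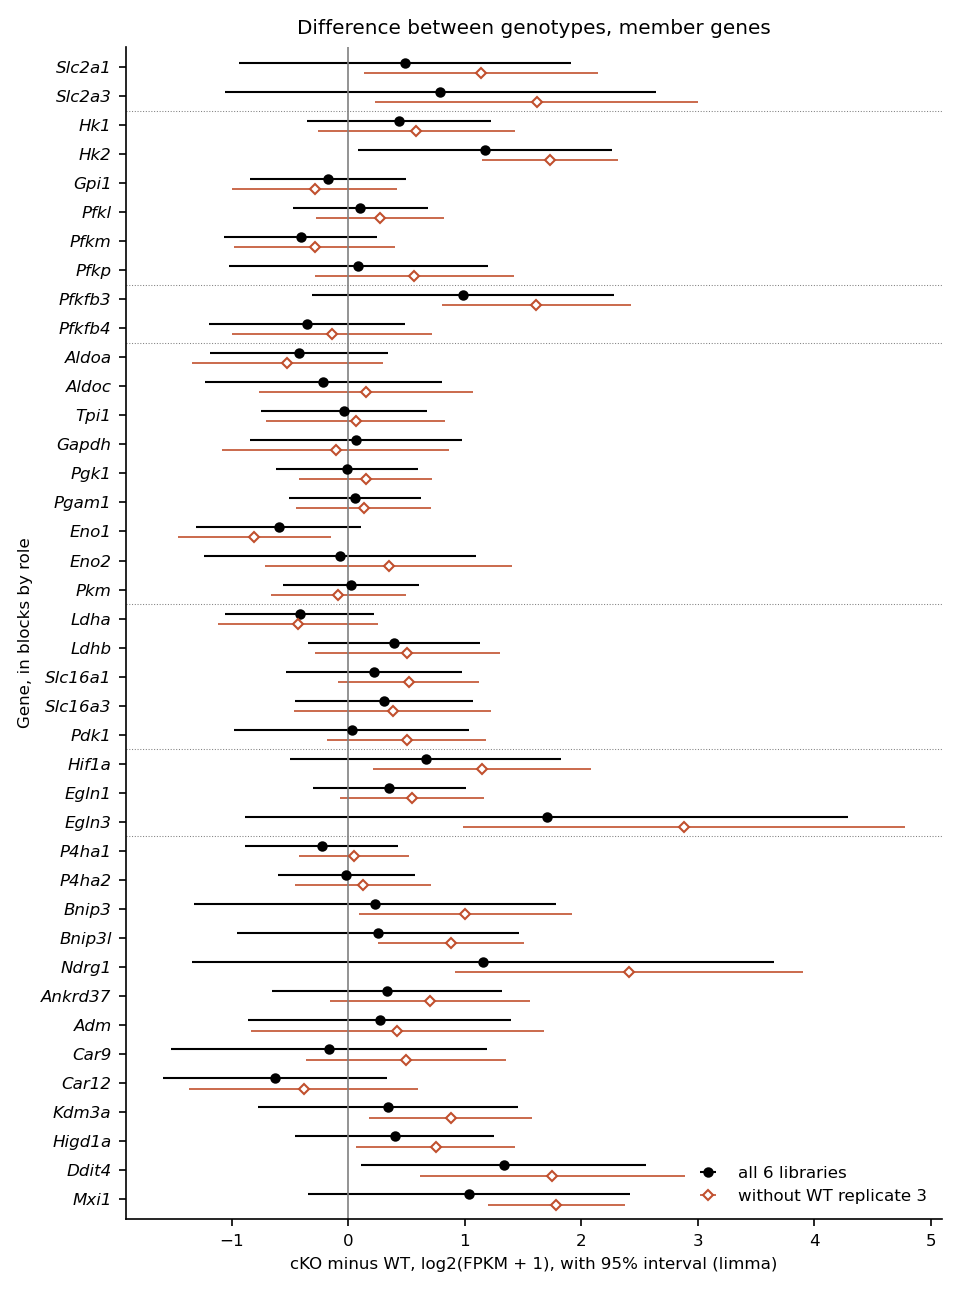
Difference between cKO and WT libraries for each member, as cKO minus WT on the log2(FPKM + 1) scale (x axis) with 95% intervals from limma, genes in blocks by role (y axis). Black points use all 6 libraries and open diamonds leave out WT replicate 3. With all 6 libraries the intervals of Hk2 and Ddit4 lie to the right of 0 before adjustment and those of the other 38 members include 0.

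The spread inside each genotype was wide. The highest WT library exceeded the lowest by more than the ratio of the genotype means (taken in whichever direction is above 1) in 38 of 40 members, 95%, against 88.7% of all tested genes. The same held among the cKO libraries in 38 of 40 members, against 75.5% of all tested genes. The highest of the 6 libraries was at least 4 times the lowest in 17 of 40 members, 42.5%, against 18.1% of all tested genes. It was at least 2 times the lowest in 33 members, 82.5%, against 59.7%. These shares were computed after the values had been seen, and members of one pathway are not independent of each other.

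The extremes fell in a few libraries. WT replicate 3 was the highest library in 17 of 40 members (42.5%, against 25% of all tested genes), cKO replicate 2 in 9 (22.5%, against 9.86%) and cKO replicate 1 in 7 (17.5%, against 15.3%). WT replicate 1 was the highest in 5 (12.5%, against 21.1%), cKO replicate 3 in 2 (5%, against 18%), and WT replicate 2 in none (against 10.7%). cKO replicate 3 was the lowest in 16 (40%, against 9.05%) and WT replicate 1 in 15 (37.5%, against 34.7%). cKO replicate 1 was the lowest in no member (against 9.18%) and WT replicate 3 in 1 (2.5%, against 20.3%). The highest library was thus WT replicate 3 or cKO replicate 2 more often than over all tested genes, that is, on both sides of the genotype comparison. The share of cKO replicate 1 was near that of all tested genes. The 5 members highest in WT replicate 1 included the abundant Ldha, Aldoa and Eno1. cKO replicate 3 lay below the mean of cKO replicates 1 and 2 in 38 of 40 members, all except Ldhb and Hif1a, against 46.3% of all tested genes. WT replicate 3 was more than 2 times the mean of WT replicates 1 and 2 in 19 members, 47.5%, against 17.4% of all tested genes.

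**Figure D2:**
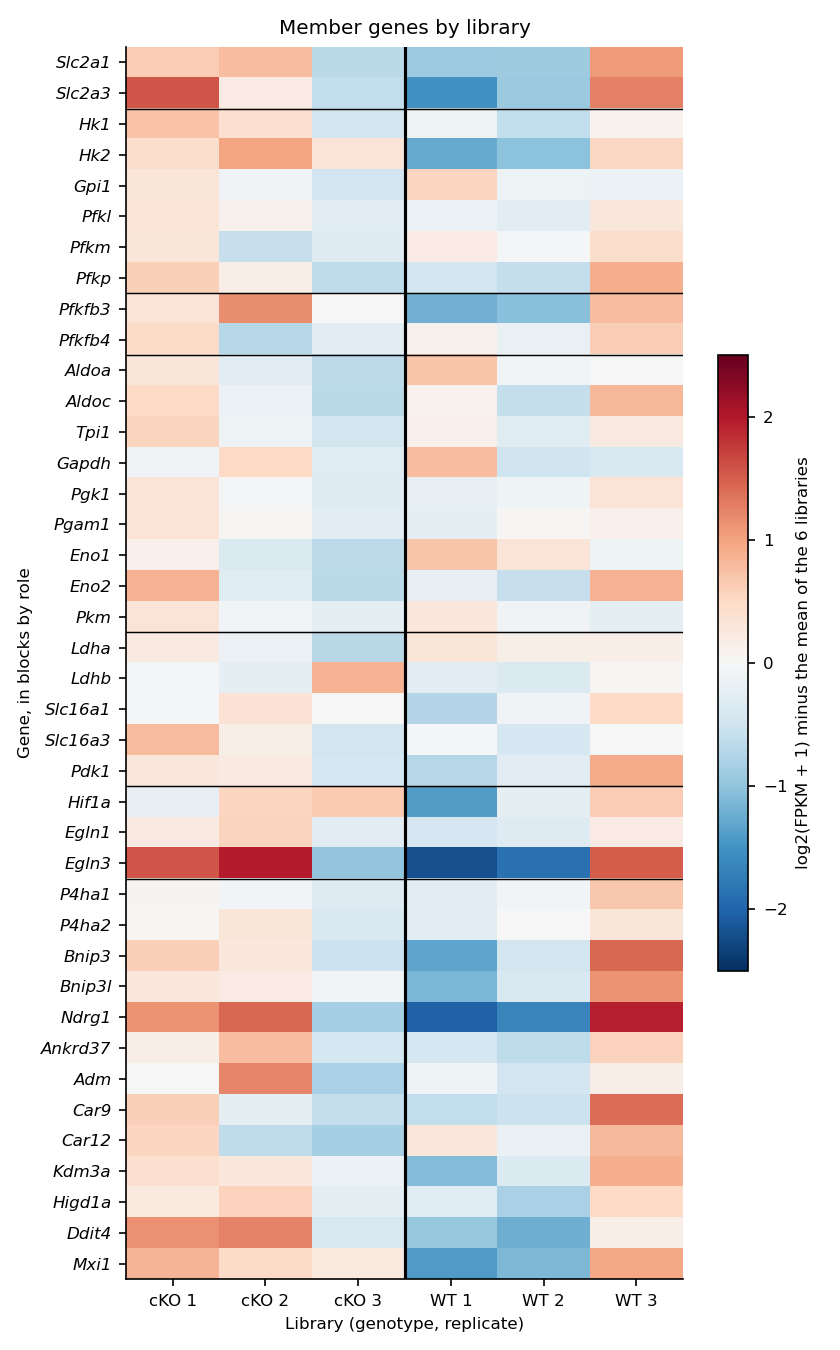
Level of each member (rows, in blocks by role) in each library (columns) as log2(FPKM + 1) minus the gene's mean over the 6 libraries. Egln3 and Ndrg1 show the strongest contrast, high in cKO replicates 1 and 2 and in WT replicate 3 and low in cKO replicate 3 and in WT replicates 1 and 2. Pgk1, Pgam1 and Pkm stay pale across the row.

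Glucose enters through the facilitative transporters GLUT1 (Slc2a1), the housekeeping form, and GLUT3 (Slc2a3), a high-affinity form. Slc2a1 was at 156.2, 171.0 and 62.0 FPKM in cKO replicates 1, 2 and 3, and at 52.7, 53.6 and 210.8 FPKM in WT replicates 1, 2 and 3. Slc2a3 was at 27.4, 10.0 and 5.25 FPKM in the cKO libraries and at 2.34, 3.99 and 21.7 FPKM in the WT libraries. For both genes cKO replicates 1 and 2 and WT replicate 3 were the 3 highest libraries, and the groups overlapped (log2 differences 0.49, SE 0.61, and 0.79, SE 0.79; limma, adjusted p = 0.905 and 0.884). Slc2a1 supplied most of the summed FPKM of this pair in every library, with Slc2a3 at 14.95, 5.55 and 7.8% in the cKO libraries and 4.26, 6.93 and 9.33% in the WT libraries.

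Hexokinase, the enzyme that traps glucose in the cell as glucose phosphate, comes next, and its inducible gene was one of the 2 members with an unadjusted p under 0.05. Hk2, the inducible mitochondria-bound form, was at 78.2, 114.5 and 71.5 FPKM in cKO libraries and at 23.3, 27.4 and 82.7 FPKM in WT libraries. The means were 88.1 ± 23.1 FPKM in cKO and 44.5 ± 33.1 FPKM in WT (SD, n = 3 each), a log2 difference of 1.17 with an SE of 0.47 (limma, unadjusted p = 0.0382, adjusted p = 0.697). All cKO values lay above WT replicates 1 and 2, and WT replicate 3 lay inside the cKO range. Hk1, the form expressed in most tissues, was at 49.8, 39.8 and 21.7 FPKM in cKO libraries and 27.4, 19.4 and 32.0 FPKM in WT libraries (adjusted p = 0.853). Hk2 made up 61.1, 74.2 and 76.7% of the summed FPKM of Hk1 and Hk2 in cKO libraries and 46.0, 58.5 and 72.1% in WT libraries, so the shares overlapped too.

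The genes from Gpi1 to the phosphofructokinases ranged less widely across the libraries than Hk2, though Pfkp ranged more widely than Hk1. Gpi1, which isomerises glucose phosphate to fructose phosphate, and Pfkl, the liver-type phosphofructokinase, ranged from 87.1 to 150.4 and from 49.5 to 77.8 FPKM in cKO libraries, and from 109.5 to 175.4 and from 49.7 to 74.0 FPKM in WT libraries. Pfkl was the main phosphofructokinase gene at 74.3, 79.4 and 79.1% of the family's summed FPKM in cKO libraries and 75.6, 76.5 and 69.7% in WT libraries. The muscle type Pfkm had a share of 11.3, 7.28 and 11.7% in cKO libraries and 15.2, 14.2 and 12.5% in WT libraries, and this was the one share, over the 7 families examined, whose groups did not overlap. It was not tested, and the level of Pfkm itself, at 5.99 to 11.9 FPKM in cKO and 9.21 to 13.2 FPKM in WT libraries, did overlap. The platelet type Pfkp was at 5.77 to 15.1 FPKM in cKO and 6.03 to 18.9 FPKM in WT libraries.

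Pfkfb3 and Pfkfb4 encode bifunctional enzymes that make and break the fructose bisphosphate which activates phosphofructokinase. Pfkfb3, a strongly kinase-biased form and a known HIF target, was at 15.2, 27.8 and 11.9 FPKM in cKO libraries and at 4.63, 5.25 and 21.02 FPKM in WT libraries (log2 difference 0.98, SE 0.55, limma adjusted p = 0.781). As with Hk2, every cKO value was above WT replicates 1 and 2, and WT replicate 3 fell among the cKO values. Pfkfb4 was low, at 1.01 to 3.598 FPKM in cKO and 1.94 to 4.05 FPKM in WT libraries.

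**Figure D3:**
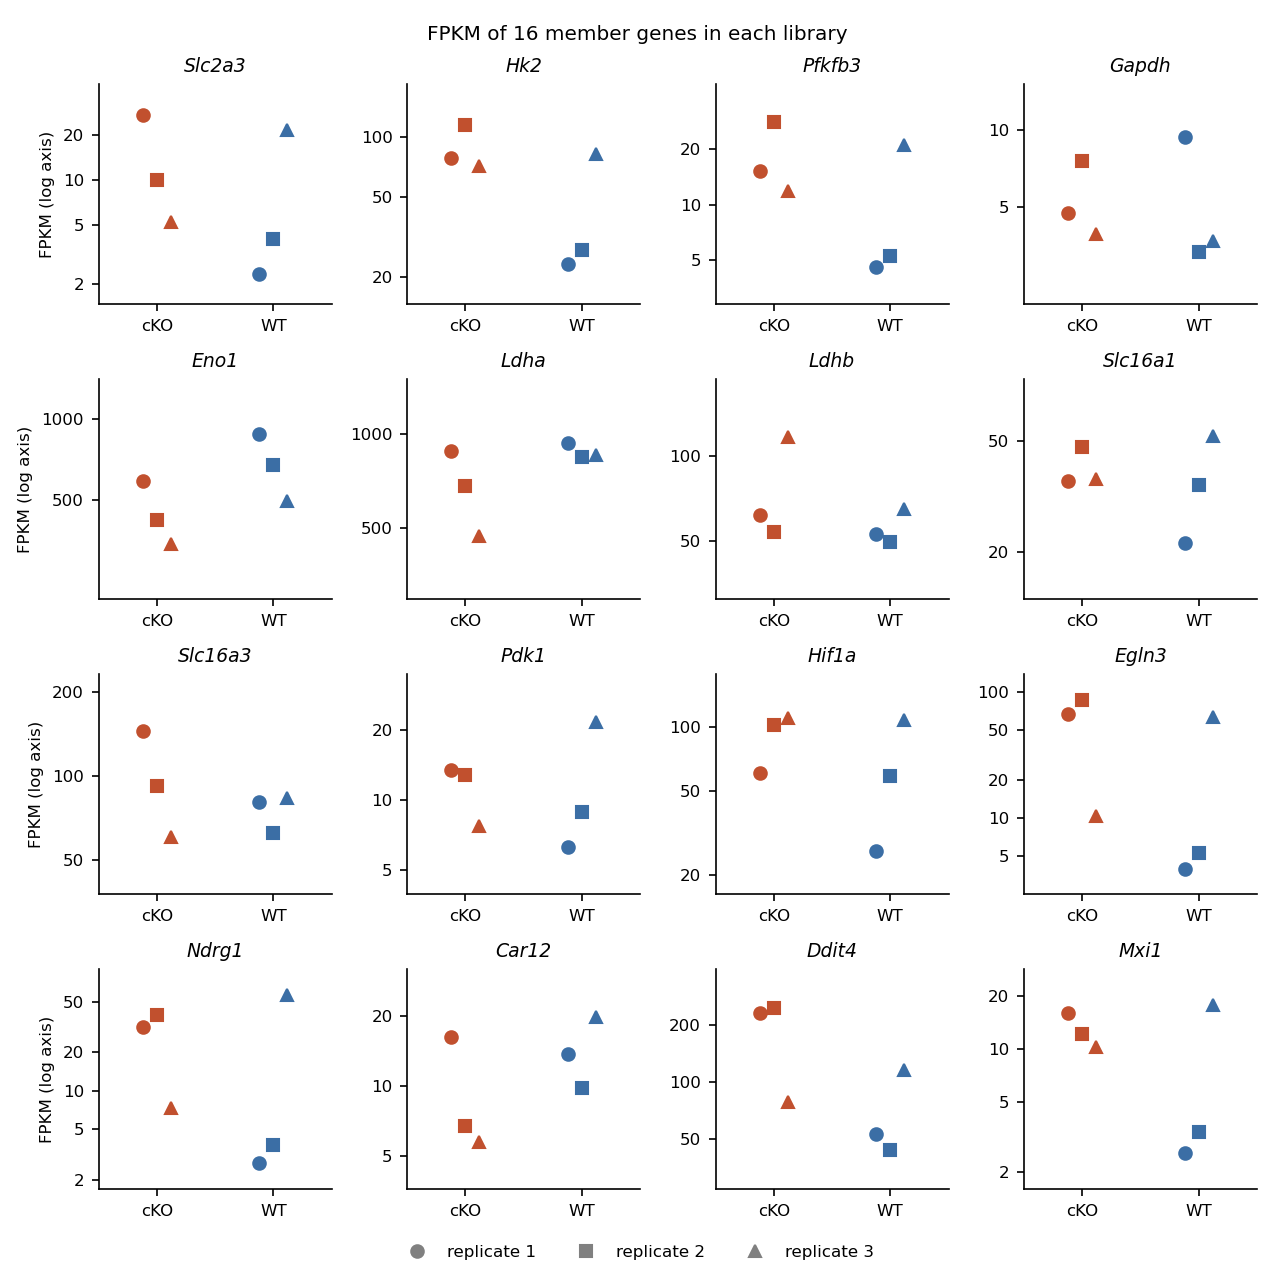
FPKM of 16 members in each library on log axes (y axis, scaled per gene), cKO libraries left of WT libraries, with the marker shape giving the replicate number. In Hk2, Pfkfb3, Egln3, Ndrg1 and Mxi1, WT replicates 1 and 2 lie below the 3 cKO libraries while WT replicate 3 lies among or above them.

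The later steps of glycolysis, from aldolase to pyruvate kinase, held several abundant transcripts beside the low ones Aldoc, Eno2 and Gapdh. Of the abundant ones, Pgk1, Pgam1 and Pkm had the narrowest ranges. The genes Aldoa, Tpi1, Pgk1, Pgam1, Eno1 and Pkm ranked 49, 104, 69, 78, 55 and 54 by mean FPKM among all 29275 genes. Pgk1, the phosphoglycerate kinase and a first ATP-yielding step, was at 621.9, 484.4 and 395.2 FPKM in cKO libraries and at 428.3, 458.2 and 622.7 FPKM in WT libraries, a log2 difference of -0.01 with a 95% interval of -0.62 to 0.60. Pkm, pyruvate kinase, was at 708.0, 538.9 and 485.9 FPKM in cKO libraries and at 689.5, 529.3 and 481.2 FPKM in WT libraries, a difference of 0.03 with an interval of -0.56 to 0.61. Across all 6 libraries the highest value was 1.47 times the lowest for Pkm. It was 1.56 times for the phosphoglycerate mutase gene Pgam1 and 1.58 times for Pgk1. For Tpi1, Aldoa and Eno1 it was 2.03, 2.53 and 2.555 times, against 22.0 times for the prolyl hydroxylase gene Egln3. The 9 triose genes summed to 3677, 2670 and 2191 FPKM in cKO libraries and to 3657, 2932 and 3044 FPKM in WT libraries, with cKO replicate 3 the lowest library.

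Eno1, the main enolase gene, had a higher mean in WT libraries. It was at 588.1, 421.2 and 343.3 FPKM in cKO libraries and at 877.1, 675.8 and 496.6 FPKM in WT libraries, with means of 450.9 ± 125.0 and 683.2 ± 190.4 FPKM (SD, n = 3 each). The log2 difference was -0.60 with an SE of 0.30 (limma, unadjusted p = 0.0876, adjusted p = 0.755), and cKO replicate 1 lay above WT replicate 3. Aldoa was likewise at 698.7, 466.0 and 360.8 FPKM in cKO libraries and at 912.4, 543.9 and 567.2 FPKM in WT libraries (log2 difference -0.42, adjusted p = 0.853). The neuronal forms Aldoc and Eno2 contributed at most 0.553 and 1.054% of the aldolase and enolase sums in any library.

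Several of these genes have near-identical copies, and no source used here states how shared reads were counted, so their levels are uncertain. Eno1b, a retrogene copy of Eno1, was listed at 167.5, 83.7 and 94.0 FPKM in cKO libraries and at 90.5, 51.2 and 72.2 FPKM in WT libraries, so the copy and its parent had their higher means in opposite genotypes. Eno1 and Eno1b together came to 755.6, 504.9 and 437.3 FPKM in cKO libraries and to 967.7, 727.0 and 568.8 FPKM in WT libraries, and the groups overlapped. Tpi-rs11, a copy of the triose phosphate isomerase gene Tpi1, was at 57.1, 46.1 and 31.1 FPKM in cKO libraries and at 88.6, 74.9 and 114.9 FPKM in WT libraries, without overlap, while Tpi1 itself overlapped at 241.0 to 488.9 FPKM in cKO and 270.8 to 388.0 FPKM in WT libraries. Gapdh, a gene with many pseudogenes, was listed at only 4.74, 7.58 and 3.95 FPKM in cKO libraries and 9.38, 3.35 and 3.70 FPKM in WT libraries. The enzymes before and after it in the pathway (Tpi1 and Pgk1) were at 241.0 to 621.9 FPKM in cKO libraries and at 270.8 to 622.7 FPKM in WT libraries.

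At the end of glycolysis lactate dehydrogenase converts pyruvate to lactate. Ldha, the form that favours lactate production, was the most abundant member and ranked 34 of all genes. It was at 885.7, 684.4 and 473.5 FPKM in cKO libraries and at 937.3, 843.0 and 860.4 FPKM in WT libraries, with means of 681.2 ± 206.1 and 880.2 ± 50.2 FPKM (SD, n = 3 each). The WT values differed by no more than 1.11 times, whereas the highest cKO library was 1.87 times the lowest. The log2 difference was -0.41 with a 95% interval of -1.052 to 0.22 (limma, adjusted p = 0.819), and cKO replicate 1 lay inside the WT range. Ldhb, the form that favours lactate use, was at 61.5, 53.4 and 117.4 FPKM in cKO libraries and at 52.6, 49.3 and 65.0 FPKM in WT libraries (log2 difference 0.39, SE 0.32, adjusted p = 0.854).

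The 2 lactate dehydrogenase genes among the members stood at opposite ends in cKO replicate 3, which had the lowest Ldha and the highest Ldhb. Ldhb made up 6.497, 7.24 and 19.9% of their summed FPKM in cKO libraries and 5.31, 5.53 and 7.02% in WT libraries. The mean share was 11.2 ± 7.52% in cKO and 5.96 ± 0.931% in WT (SD, n = 3 each), and it rested on cKO replicate 3: without that library the difference was 0.91 percentage points in place of 5.25. In the same library Sertoli markers reached their highest sum, 724.8 FPKM, and spermatid markers their lowest, 14.5 FPKM, and the part of either in the Ldhb share was not tested. In bulk samples, fewer cells of a type and less RNA per cell cannot be told apart.

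**Figure D4:**
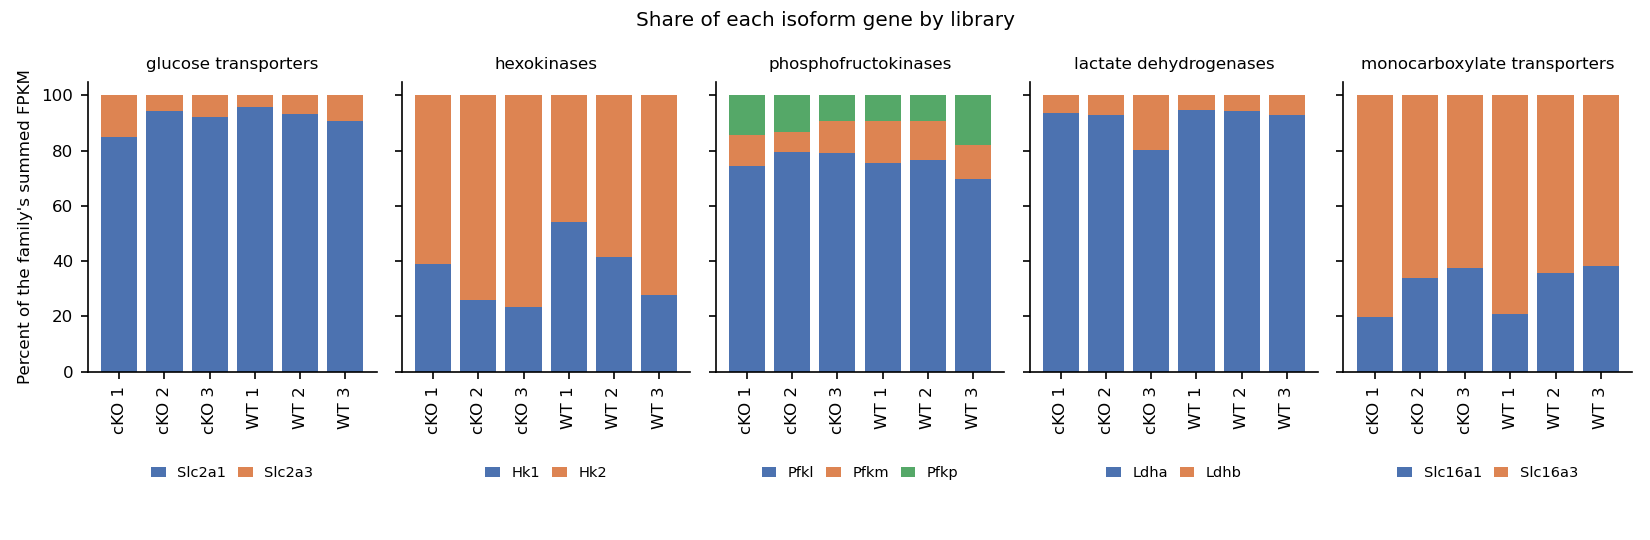
Share of each gene in the summed FPKM of its family (y axis, percent) for 5 families, by library (x axis). Slc2a1, Pfkl and Ldha are the larger part in every library, and Ldhb reaches 19.9% in cKO replicate 3, against 5.31 to 7.24% in the other 5 libraries.

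Lactate leaves the cell through monocarboxylate transporters. Slc16a3 (MCT4), a low-affinity exporter typical of glycolytic cells, was at 145.0, 92.2 and 60.5 FPKM in cKO libraries and at 81.3, 62.6 and 83.6 FPKM in WT libraries (log2 difference 0.31, SE 0.33, limma adjusted p = 0.893). Slc16a1 (MCT1), which carries lactate either way, was at 35.9, 47.5 and 36.5 FPKM in cKO libraries and at 21.6, 34.6 and 52.0 FPKM in WT libraries (0.22, SE 0.32, adjusted p = 0.917). Slc16a3 was the larger share of this pair in every library, from 62.4 to 80.2% in cKO and from 61.7 to 79.0% in WT. Basigin (Bsg), the chaperone that brings both transporters to the membrane and no member of the list, was at 501.7, 371.8 and 265.7 FPKM in cKO libraries and at 387.3, 267.7 and 514.7 FPKM in WT libraries (adjusted p = 0.986). It is one of 5 listed transport partners, of which 3 were tested, 1 higher and 2 lower in cKO libraries and 0 passing (0 also at an unadjusted p under 0.05).

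Pdk1, which inhibits pyruvate dehydrogenase, was at 13.4, 12.8 and 7.73 FPKM in cKO libraries. In WT libraries it was at 6.31, 8.87 and 21.7 FPKM (log2 difference 0.03, limma adjusted p = 0.992). Of the 13 genes listed for pyruvate entry into mitochondria, none a member, 6 were higher and 7 lower in cKO libraries and 0 passed the test (limma; 0 also at an unadjusted p under 0.05), with a median difference of -0.02. Among them Pdk4, another kinase of pyruvate dehydrogenase, was at 12.6, 3.78 and 7.50 FPKM in cKO libraries and at 13.9, 12.6 and 15.02 FPKM in WT libraries. Its groups did not overlap, but the difference of -0.85 (SE 0.37) did not pass (adjusted p = 0.732).

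Hif1a, the inducible subunit itself, was at 60.6, 102.1 and 110.4 FPKM in cKO libraries and at 26.0, 58.9 and 108.2 FPKM in WT libraries (log2 difference 0.67, SE 0.50, limma adjusted p = 0.840). Its highest library was cKO replicate 3, in which most other members were low. Egln1 (PHD2), the main prolyl hydroxylase that marks HIF1A for degradation, was at 70.3, 88.5 and 49.9 FPKM in cKO libraries and at 44.3, 47.8 and 69.3 FPKM in WT libraries (adjusted p = 0.853). Egln3 (PHD3), a hydroxylase that HIF itself induces, had the widest range of all members. It was at 66.8, 86.9 and 10.4 FPKM in cKO libraries and at 3.95, 5.22 and 63.4 FPKM in WT libraries, a log2 difference of 1.70 with an SE of 1.11 (adjusted p = 0.818). WT replicate 3 was 13.8 times the mean of WT replicates 1 and 2, while the ratio of the genotype means was 2.26.

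The genes that hypoxia induces in many cell types differed in which library was highest. Ndrg1, a stress and differentiation gene, was at 31.6, 39.6 and 7.38 FPKM in cKO libraries and at 2.70, 3.74 and 56.1 FPKM in WT libraries (log2 difference 1.16, SE 1.07, limma adjusted p = 0.880). Mxi1, a MAX partner that antagonises MYC, was at 16.1, 12.2 and 10.2 FPKM in cKO libraries and at 2.56, 3.40 and 17.7 FPKM in WT libraries (1.04, SE 0.59, adjusted p = 0.786). In both genes WT replicate 3 was the highest of the 6 libraries and WT replicates 1 and 2 the lowest. Bnip3 and Bnip3l, mitophagy receptors on the outer mitochondrial membrane, were at 108.4, 86.3 and 49.1 and at 38.0, 36.1 and 29.7 FPKM in cKO libraries, and at 28.04, 51.2 and 195.2 and at 13.8, 23.9 and 69.5 FPKM in WT libraries. For these, WT replicate 3 alone exceeded every cKO library, and the ratio of the means was 0.888 and 0.968 although the log2 differences were 0.23 and 0.26.

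Ddit4 (REDD1), an inhibitor of the growth kinase mTORC1 that hypoxia and other stresses induce, was the member with the smallest p. It was at 231.0, 246.7 and 78.8 FPKM in cKO libraries and at 53.5, 43.6 and 116.6 FPKM in WT libraries, with means of 185.5 ± 92.8 and 71.3 ± 39.6 FPKM (SD, n = 3 each). The log2 difference was 1.33 with an SE of 0.52 (limma, unadjusted p = 0.0364, adjusted p = 0.692). cKO replicates 1 and 2 lay above every WT library, and cKO replicate 3 lay inside the WT range. Adm, the vasodilator peptide adrenomedullin, was at 141.2, 330.4 and 80.6 FPKM in cKO libraries and at 132.1, 101.6 and 159.8 FPKM in WT libraries, with cKO replicate 2 alone high.

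The remaining hypoxia-induced members were lower or flatter. The carbonic anhydrases Car9 and Car12, which handle extracellular acid, had a higher mean in WT libraries, for Car9 through WT replicate 3 alone. Without that library the log2 difference was 0.495 for Car9 and -0.381 for Car12. Car9 was at 2.93, 1.22 and 0.713 FPKM in cKO libraries and 0.694, 0.801 and 5.87 FPKM in WT libraries, and Car12 at 16.3, 6.69 and 5.73 FPKM in cKO libraries and 13.7, 9.73 and 19.9 FPKM in WT libraries (log2 differences -0.16 and -0.63, limma adjusted p = 0.967 and 0.819). The histone demethylase gene Kdm3a, the mitochondrial gene Higd1a and the ankyrin repeat gene Ankrd37 were between 1.10 and 32.4 FPKM in cKO libraries and between 0.833 and 30.8 FPKM in WT libraries. The collagen prolyl hydroxylase genes P4ha1 and P4ha2 were at 73.5 to 97.2 and 25.7 to 41.9 FPKM in cKO libraries and at 77.2 to 148.2 and 27.96 to 41.6 FPKM in WT libraries.

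To show what the promoters of these genes hold, the 250 bases before each annotated start were read from RefSeq (GRCm38.p6) for the 37 members that matched, in 54 windows. The HIF core motif was searched as ACGTG or GCGTG on both strands, and matches that overlap, such as both strands of CACGTG, counted as 1 site. At least 1 site was found in 42 of 54 member windows, 77.8%, against 38.6% of all 32851 windows, and 2 or more sites in 40.7% against 13.5%. By gene it was 33 of 37 members, 89.2%, against 41.5% of all 27025 genes with a window. CACGTG, which other factors such as MYC also bind, stood in 11.1% of the member windows against 6.02% of all windows. A match is a run of letters and not a measured binding site, both motifs contain a CpG, and the CpG content of the windows was not compared. The 3 widest-ranging members with a window (Egln3, Car9, Bnip3) and the genes of glucose uptake and lactate production (Slc2a1, and the farther upstream of 2 starts of Ldha) are printed 5′ to 3′ on the gene's strand, with the motif letters of either strand in capitals.
Egln3 (chr12:54203875-54204124, minus strand): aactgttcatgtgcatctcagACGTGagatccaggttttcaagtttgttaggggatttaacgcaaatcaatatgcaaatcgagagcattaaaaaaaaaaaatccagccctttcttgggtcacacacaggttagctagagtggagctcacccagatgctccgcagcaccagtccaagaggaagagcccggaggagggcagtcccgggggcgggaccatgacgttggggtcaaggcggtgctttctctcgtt
Car9 (chr4:43506776-43507025, plus strand): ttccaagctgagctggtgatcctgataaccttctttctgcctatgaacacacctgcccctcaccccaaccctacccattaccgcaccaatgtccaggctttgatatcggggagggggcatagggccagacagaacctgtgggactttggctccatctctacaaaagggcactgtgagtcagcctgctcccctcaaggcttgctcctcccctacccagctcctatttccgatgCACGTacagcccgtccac
Bnip3 (chr7:138909507-138909756, minus strand): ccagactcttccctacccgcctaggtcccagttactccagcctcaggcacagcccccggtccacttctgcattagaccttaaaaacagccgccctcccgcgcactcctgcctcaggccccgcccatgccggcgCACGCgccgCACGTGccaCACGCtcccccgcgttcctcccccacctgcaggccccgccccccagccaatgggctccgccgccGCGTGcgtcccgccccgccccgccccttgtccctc
Slc2a1 (chr4:119108495-119108744, plus strand): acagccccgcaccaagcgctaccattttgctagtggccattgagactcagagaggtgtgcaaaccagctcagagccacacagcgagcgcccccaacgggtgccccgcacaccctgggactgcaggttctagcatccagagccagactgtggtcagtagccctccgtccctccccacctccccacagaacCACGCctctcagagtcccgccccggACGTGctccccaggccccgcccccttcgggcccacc
Ldha (chr7:46845554-46845803, plus strand): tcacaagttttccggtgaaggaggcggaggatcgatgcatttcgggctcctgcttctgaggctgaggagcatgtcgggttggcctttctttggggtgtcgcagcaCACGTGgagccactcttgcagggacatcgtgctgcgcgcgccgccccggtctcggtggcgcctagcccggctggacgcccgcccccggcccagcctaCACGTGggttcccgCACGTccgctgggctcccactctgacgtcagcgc

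Among the printed windows alone, the order by number of matches was not the order by range. Egln3, whose highest library was 22.0 times its lowest, held 1 site, 229 bases before the start. Car9 held 1 site at 18 bases and Bnip3 held 4, at 117, 108, 99 and 35 bases. Slc2a1 held 2, at 61 and 36 bases. Ldha, whose highest library was 1.98 times its lowest, held 3, at 145, 48 and 34 bases. The window of the other Ldha start, not printed, held 1, at 59 bases. These are single genes picked for range or role and set side by side, with no test, and the other members were not compared in this way.

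The role groups differed in how far libraries spread. The mean log2(FPKM + 1) of the 13 hypoxia-induced members was 4.92, 4.90 and 4.04 in cKO replicates 1, 2 and 3 and 3.72, 3.85 and 5.30 in WT replicates 1, 2 and 3. That of the 9 triose genes was 6.93, 6.48 and 6.10 in cKO libraries and 6.79, 6.36 and 6.75 in WT libraries. The 16 HIF and hypoxia-induced members together took 0.311, 0.405 and 0.192% of all FPKM in cKO libraries and 0.129, 0.160 and 0.382% in WT libraries. For these 16 members the median ratio of the highest to the lowest library was 2.01 within cKO and 4.04 within WT, against 1.34 between the genotype means. For the 9 triose genes the same 3 medians were 1.92, 1.68 and 1.047. Over all 12284 tested genes they were 1.447, 1.851 and 1.195, so the ranges exceeded the ratio of the means there too.

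**Figure D5:**
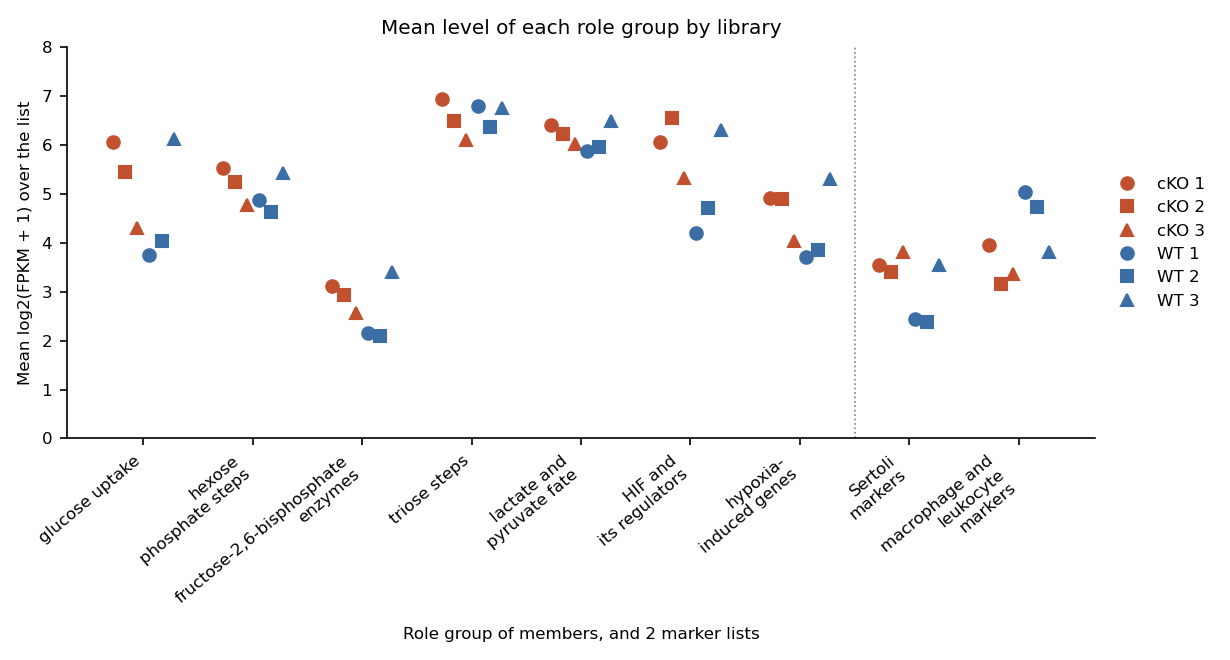
Mean log2(FPKM + 1) over the genes of each role group (x axis) in each library, with Sertoli and macrophage markers at the right for comparison. Hypoxia-induced members range from 4.04 to 4.92 in cKO libraries and from 3.72 to 5.30 in WT libraries, with WT replicate 3 the highest.

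The cell markers moved in part with this pattern. Sertoli markers summed to 621.6, 481.9 and 724.8 FPKM in cKO replicates 1, 2 and 3 and to 201.3, 160.6 and 637.6 FPKM in WT replicates 1, 2 and 3, and macrophage markers to 257.1, 145.5 and 177.4 FPKM in cKO libraries and to 1075, 847.8 and 211.4 FPKM in WT libraries. WT replicates 1 and 2, with the least Egln3 and Ndrg1, thus had the lowest Sertoli and the highest macrophage sums. Single genes weighed heavily: Clu was at 450.3 FPKM in cKO replicate 1, and Lyz2 at 647.8 and 576.9 FPKM in WT replicates 1 and 2. Some markers ran the other way. Gata4 was highest in WT replicate 1 (63.1 FPKM) and lowest in WT replicate 3 (29.6 FPKM). Cd14 was at 47.1 and 48.4 FPKM in cKO replicates 1 and 2 and at 18.0 and 13.3 FPKM in WT replicates 1 and 2. cKO replicate 3, also low in Egln3 and Ndrg1, had the highest Sertoli sum. Of 9 tested macrophage markers 8 were lower in cKO libraries, of 8 tested Sertoli markers 7 were higher, and 0 of either passed the test (limma; 5 and 3 at an unadjusted p under 0.05). The 7 endothelial markers summed to 97.8, 62.1 and 57.1 FPKM in cKO libraries and to 36.6, 31.9 and 60.7 FPKM in WT libraries, with WT replicate 3 again nearer the cKO libraries. All 6 of them that were tested had the higher mean log2 value in cKO libraries, with a median log2 difference of 1.08, and 0 passed (limma; 2 at an unadjusted p under 0.05). Peritubular myoid markers were mixed, with 2 of 5 higher and 3 lower in cKO libraries, 0 passing and 1, Tagln, at an unadjusted p under 0.05. Their sum, 654.2 to 1194 FPKM in cKO libraries and 487.4 to 2924 FPKM in WT libraries, was mostly the actin gene Acta2. The spermatid, Leydig and fibroblast sums overlapped between the genotypes, and the 5 erythroid markers stayed under 1 FPKM in every library. Beside these marker counts, 59.8% of all tested genes had the higher mean log2 value in cKO libraries and 6.81% had an unadjusted p under 0.05 (limma). The part of cell composition in the members' levels was not tested.

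Leaving out WT replicate 3 was the one setting in which members passed. Without it, Hk2 and Mxi1 passed, with log2 differences of 1.73 (SE 0.25) and 1.79 (SE 0.25) and limma adjusted p = 0.0186 and 0.0178. That was 2 of 40 members, 5%, where 3.89% of all tested genes passed in that setting and 2.47% passed with the higher mean in cKO. At an unadjusted p under 0.05 (limma) there were 14 members, 35%, against 22.3% of all genes. Of all 40 members, 13 had such a p with the higher mean in cKO libraries, as did 14.2% of all tested genes. Eno1 had such a p with the lower mean. Pfkfb3 lay next to the threshold (1.61, SE 0.34, adjusted p = 0.0538), followed by Ndrg1 (2.41, adjusted p = 0.0884), Ddit4 (1.75, adjusted p = 0.0979) and Egln3 (2.88, adjusted p = 0.101). Without any other single library 0 members passed, against 0.0326% of all genes without WT replicate 1 and 0 genes in the other 4 settings. At an unadjusted p under 0.05 there were then 3 members without cKO replicate 1 (7.5%, against 6.67% of all genes), 4 without cKO replicate 3 (10%, against 4.29%), and 0 without cKO replicate 2, WT replicate 1 or WT replicate 2 (against 3.87, 6.69 and 3.18%). No label gives a reason to leave WT replicate 3 out.

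Genes of the same pathways outside the list were read in the same fit. Over all tested genes 59.8% had the higher mean log2 value in cKO libraries and 6.81% had an unadjusted p under 0.05 (limma). Of 22 tested HIF pathway genes 17 were higher and 5 lower in cKO libraries, 0 passed (limma; 2 at an unadjusted p under 0.05), and the median log2 difference was 0.23. Cited4, a coactivator-binding protein, was at 74.4, 34.8 and 56.0 FPKM in cKO libraries and at 18.2, 8.74 and 27.1 FPKM in WT libraries, without overlap (1.62, SE 0.43, adjusted p = 0.545). Lox, which crosslinks collagen, was at 150.7, 177.7 and 177.4 FPKM in cKO libraries and at 210.3, 352.9 and 237.0 FPKM in WT libraries, also without overlap (-0.63, SE 0.25, adjusted p = 0.692). Bhlhe40, a transcriptional repressor induced by hypoxia, was at 53.1, 64.6 and 26.0 FPKM in cKO libraries and at 13.5, 13.0 and 63.0 FPKM in WT libraries. Vegfa, the angiogenic growth factor, and Ero1a, an oxidase of protein folding in the endoplasmic reticulum, were named after their values were seen. Vegfa was at 177.3, 160.7 and 67.9 FPKM in cKO libraries and 29.3, 31.4 and 206.7 FPKM in WT libraries, and Ero1a at 67.2, 112.6 and 31.1 FPKM in cKO libraries and 14.3, 18.7 and 177.6 FPKM in WT libraries. In both, WT replicate 3 was the highest library and WT replicates 1 and 2 the lowest, as in Ndrg1.

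Of 19 genes on branches from glycolysis 14 were lower and 5 higher in cKO libraries, 0 passed (limma; 1 at an unadjusted p under 0.05), and the median log2 difference was -0.16. Gpd1, which turns a glycolytic triose into the backbone of lipids, was at 6.08, 3.5 and 8.77 FPKM in cKO libraries and 1.62, 0.987 and 3.17 FPKM in WT libraries, without overlap (1.28, SE 0.38, adjusted p = 0.596). Psat1, of serine synthesis, was at 84.6, 69.3 and 84.7 FPKM in cKO libraries and 101.0, 98.9 and 87.1 FPKM in WT libraries, also without overlap (-0.27, adjusted p = 0.829).

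Of 9 genes listed as other isozymes of these steps, most of them germ cell forms, 5 were tested, 1 higher and 4 lower in cKO libraries, and 0 passed (limma; 1 at an unadjusted p under 0.05). Gapdhs, the sperm form of Gapdh, was at 21.9, 3.66 and 1.64 FPKM in cKO libraries and at 7.16, 4.11 and 15.3 FPKM in WT libraries. Pgk2, the testis form of Pgk1, was at 7.84, 1.17 and 0.306 FPKM in cKO libraries and at 2.099, 2.05 and 7.75 FPKM in WT libraries. Both were highest in cKO replicate 1 and WT replicate 3, the libraries with the highest spermatid marker sums, 256.4 and 157.3 FPKM. The sums of WT replicates 1 and 2 were 134.5 and 58.5 FPKM. Gapdhs was at 7.16 and 4.11 FPKM there, and Pgk2 at 2.099 and 2.05 FPKM. Ldhc, the testis lactate dehydrogenase gene, was named after its values were seen. It was at 99.3, 2.49 and 3.43 FPKM in cKO libraries and at 4.86, 5.06 and 70.2 FPKM in WT libraries. In cKO replicate 1 and WT replicate 3 it exceeded Ldhb (61.5 and 65.0 FPKM), and the shares of Ldha and Ldhb given above leave it out. The same libraries are also 2 of the 3 libraries in which Slc2a3 was high, and the part of germ cells in Slc2a3 was not tested. Hk3, a hexokinase found mainly in leukocytes, was at 4.86, 3.15 and 2.89 FPKM in cKO libraries and at 11.7, 9.16 and 5.23 FPKM in WT libraries, without overlap (-1.03, SE 0.32, limma adjusted p = 0.608).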

How the data were processed

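RNA from 6 cultures, 3 Arhgef15 cKO and 3 WT, was sequenced, and groups were taken from the genotype label. The deposited files give an FPKM value for each gene in each library. FastQC, HISAT2 2.1.0 and genome build mm8 are named in the submitters' processing notes; no source used here names the counter, the annotation or whether strand was used. The unit was taken from the values: for genes of a single exon and at most 10 fragments, 99.1 to 99.5% of value times exonic length fell within 0.02 times the fragment number of a whole multiple of 1 step per library. Of 29275 identifiers, 28932 matched a symbol in the reference table; no file coordinates were used.

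FPKM are not counts, so limma 3.58.1 (R 4.3.3, eBayes with trend) was run on log2(FPKM + 1), which understates changes of low genes, with genotype as the only term. Tests covered the 12284 genes that reached 1 FPKM in 3 or more libraries, two-sided, with Benjamini-Hochberg adjustment at 0.05. Arhgef15 was read from the fit without the filter. The fit was tested on simulated data. Python 3.11.15 made the tables and figures. Named genes were the 8 members with the smallest p, the 8 with the largest difference, non-overlapping members of at least 5 FPKM, the lactate branch, Gapdh and Hif1a, with up to 4 genes of each pathway list; other members are given by their values or ranges. Alternatives were other filters, pseudocounts of 0.1 and 5, 2 scalings, a threshold of 0.1 on the adjusted p, a replicate block and leaving out each library. Over all tested genes the median difference was 0.08, against 0.02 after median-ratio scaling and -0.002 after quantile normalization. Members and lists were chosen with earlier results of these data known. Of 70 pathway genes listed, 1 was not analysed here.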

Additional observations from a re-analysis of the deposited data

How the results depend on the processing

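No member passed under any filter, pseudocount, scaling, threshold or replicate block that was run; with each library left out in turn the count was 0 to 2, the 2 being without WT replicate 3. The count over all genes was 2, and it was 0 without the filter, 0 with the replicate block and 0 to 478 with a library left out (478 without WT replicate 3, 4 without WT replicate 1, otherwise 0). Same-numbered libraries did not deviate together (correlations of deviations 0.138, 0.0322 and -0.206). With 3 libraries per group, and WT replicate 3 apart from the other WT libraries, this cannot decide whether cultures were paired. The members' median log2 difference, 0.16, ranged from -0.01 to 0.50 with a library left out and from 0.10 to 0.24 in the other settings, and between 19 and 33 of 40 members had the higher mean in cKO with a library left out. Pdk1, at 0.03, turned to -0.00072 with a pseudocount of 5, -0.028 after median-ratio scaling and -0.10 after quantile normalization, and Gapdh, at 0.07, to -0.017 after quantile normalization. With a library left out, Pdk1 lay between -0.31 and 0.50, Gapdh between -0.16 and 0.47, Slc16a1 between -0.096 and 0.52, and Slc16a3 between -0.0092 and 0.61; the cause was not tested. The other 12 named members kept their direction in each of these settings, but not their size. With a library left out, Egln3 lay between 1.03 and 2.88, Ndrg1 between 0.44 and 2.41, Slc2a3 between 0.20 and 1.62, Mxi1 between 0.59 and 1.79 and Pfkfb3 between 0.63 and 1.61, each highest without WT replicate 3 and, except Slc2a3 (lowest without cKO replicate 1), lowest without WT replicate 1. Hif1a lay between 0.14 (without WT replicate 1) and 1.15 (without WT replicate 3), and without cKO replicate 3 Ldhb was at 0.053 and Ldha at -0.18. Car12 lay between -1.048 and -0.37, Eno1 between -0.81 and -0.40, Hk2 between 0.84 and 1.73 and Ddit4 between 1.046 and 1.86. Arhgef15 stayed above 0 and short of the threshold, from 0.06 (pseudocount 5) to 1.053 (pseudocount 0.1).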
